A study of Sus scrofa with 6 samples.

Results

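The genes described here encode enzymes and a regulator of fatty acid synthesis: SCD, FASN, ACACA, ELOVL5 and THRSP. They were taken by their exact symbol from a table of 7661 gene records of pig (Sus scrofa) longissimus muscle, the long muscle of the back. The 5 genes stood on 7 records, because FASN and THRSP had 2 records each, and these were kept apart. RNA was sequenced from 3 libraries of the High_IMF group (high intramuscular fat, called high) and 3 libraries of the Low_IMF group (low intramuscular fat, called low). Intramuscular fat is the lipid stored among the fibres of a muscle. All 6 libraries were made from total RNA of freshly harvested muscle, no treatment is named, and the design text gives n = 3 for each group. The labels state neither breed, sex and age nor the fat content measured. The 5 genes were picked because they differed in this same comparison, so their differences are given as a description without p-values.

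Fatty acids are made in the cytosol from acetyl-CoA. ACACA, the cytosolic acetyl-CoA carboxylase, turns acetyl-CoA into malonyl-CoA, and FASN, the fatty acid synthase, joins these units into palmitate, a saturated fatty acid. ELOVL5 lengthens fatty acids, mainly polyunsaturated ones, and SCD, the stearoyl-CoA desaturase, puts a double bond into saturated ones, giving oleate and palmitoleate. THRSP, also called Spot 14, is a small protein that rises with thyroid hormone and carbohydrate feeding in rodents and is found in lipogenic tissues. In pigs the main site of fatty acid synthesis is adipose tissue, and adipocytes also lie within muscle.

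Library totals ran from 25371989 to 28874691 reads in the high group and from 30139025 to 34813172 reads in the low group. Levels are given as CPM, read counts scaled to library size, with TMM normalisation, which adjusts for differences in composition. Fold changes are high over low on the log2 scale. The table names genomic spans but no transcript lengths, so levels are compared between libraries and not between different genes. The fibre gene MYH1 reached 34942 CPM, and no muscle fibre marker matched was below 421 CPM in any library. In bulk tissue, fewer cells of a type and less RNA per cell cannot be told apart.

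All 7 records were higher in the high group and none overlapped between the groups. Over all 7661 records, 13.5% lay higher in the high group without overlap and 13.3% lower (26.8% in all), and since the genes were chosen from this contrast nothing is read from that difference. edgeR's quasi-likelihood test, used below for other genes, called 0.131% of all records higher and 0.0131% lower in the high group after adjustment (0.144% in all). At an unadjusted p under 0.05 it had 10.2% higher and 8.3% lower (18.5% in all). As alternatives, DESeq2 called 6.77% and edgeR's exact test 4.12% of the records tested after adjustment. The log2 fold changes had a median of 2.39 and ran from 1.05 to 4.07, against a median of -0.04 over all records. Summed over the 7 records, the level was 1025, 669 and 841 CPM in high libraries 1 to 3 and 80.4, 104 and 119 CPM in low libraries 1 to 3.

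**Figure D1:**
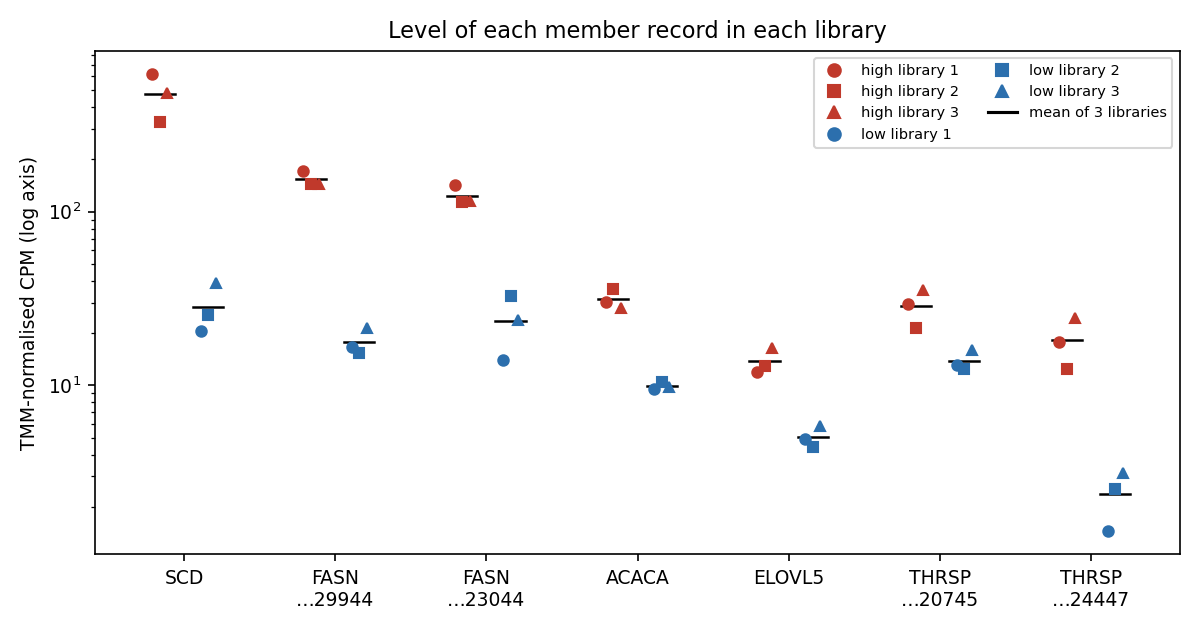
TMM-normalised CPM (log axis) of each of the 7 records in each library, with high libraries in red to the left of low libraries in blue and the mean of 3 libraries as a line.  Each record's 3 high libraries lie above its 3 low libraries, with the widest gap in SCD and the narrowest in the first THRSP record, ENSSSCG00000020745.

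ACACA, which supplies the building block of the chain, lies on chromosome 12 from 40200509 to 40367985 on the minus strand (ENSSSCG00000017694; coordinates here are those of the deposited table, whose genome build is not given in the sources used here). It had 30.1, 36.1 and 28.0 CPM in high libraries 1 to 3 and 9.55, 10.5 and 9.82 CPM in low libraries 1 to 3. The coefficient of variation was 13.5% in the high libraries and 4.67% in the low libraries, which lay close together. Its log2 fold change was 1.66 (SE 0.15, n = 3 per group), a 3.15-fold higher level in the high group, which ranked 12 among all 7661 records. The isoform ACACB sits at the outer membrane of mitochondria, where its malonyl-CoA restrains fatty acid oxidation. ACACB had 101, 80.5 and 89.5 CPM in high libraries 1 to 3 and 93.2, 107 and 103 CPM in low libraries 1 to 3, and its groups overlapped. The ratio of ACACA to ACACB within a library was therefore 0.298, 0.449 and 0.312 in the high group and 0.103, 0.0979 and 0.0953 in the low group. ACACA was chosen for its difference, so nothing is read from this ratio.

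FASN had 2 records on the minus strand of chromosome 12 that lie 13.9 kb apart. The record ENSSSCG00000029944 (1023477 to 1034681) had 172, 145 and 143 CPM in high libraries 1 to 3 and 16.7, 15.4 and 21.5 CPM in low libraries 1 to 3. Its lowest high library was 6.68-fold above its highest low library, and its log2 fold change of 3.10 (SE 0.17) ranked 2 in the table. The record ENSSSCG00000023044 (1048559 to 1052166) had 142, 114 and 115 CPM in high libraries 1 to 3 and 14.0, 32.8 and 23.8 CPM in low libraries 1 to 3. The high libraries were alike on both records, whereas on the second record low library 2 stood 2.34-fold above low library 1.

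The proportion between the FASN records was steady in the high group and not in the low group. The second over the first record was 0.824, 0.785 and 0.801 in high libraries 1 to 3 and 0.840, 2.13 and 1.11 in low libraries 1 to 3. In low library 2 the second record thus held more reads than the first, 1105 against 520. The log2 fold change of the second record, 2.39 (SE 0.30), was 2.71 without low library 2 and 2.14 without low library 1. With the reads of both records added, FASN had a log2 fold change of 2.74 (SE 0.21). Reads can be shared between records of 1 gene, and how the authors assigned them is not given in the sources used here.

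SCD, the desaturase, lies on the plus strand of chromosome 14 from 120964210 to 120980992 (ENSSSCG00000010554). It had 622, 328 and 479 CPM in high libraries 1 to 3 and 20.6, 25.5 and 38.8 CPM in low libraries 1 to 3. The lowest high library was 8.46-fold above the highest low library. Its log2 fold change of 4.07 (SE 0.34), a 16.8-fold higher level, ranked 1 of all records. SCD also varied within each group, the highest library being 1.90-fold above the lowest in the high group and 1.88-fold in the low group. For the first FASN record these ratios were 1.197 in the high group and 1.39 in the low group. SCD over that FASN record was 3.62, 2.27 and 3.34 in the high libraries and 1.24, 1.65 and 1.81 in the low libraries. The desaturase thus stood higher relative to the synthase in all 3 high libraries than in any low library. Both genes were chosen from this contrast, in which SCD had the larger difference, so nothing is read from this ratio.

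ELOVL5, the elongase, is placed on the unassembled scaffold JH118617.1 (ENSSSCG00000024149, 45686 to 69579, plus strand). It had 12.02, 12.9 and 16.4 CPM in high libraries 1 to 3 and 4.95, 4.43 and 5.83 CPM in low libraries 1 to 3. Its log2 fold change was 1.45 (SE 0.19), a 2.72-fold higher level. The authors' table holds records with more than 10 CPM in at least 3 libraries, and ELOVL5 reached this in every high library and in no low library. The record could therefore enter the table only through the high group, as did the THRSP record ENSSSCG00000024447. In all, 71 records of the table were above 10 CPM in every high and no low library, and 49 in every low and no high library. Of the other records, SCD, both of FASN and the first of THRSP were above 10 CPM in all 6 libraries, and ACACA in every high and 1 low library.

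THRSP, the lipogenic regulator, had 2 records of the same span, 1038 bases, on the plus strand of chromosome 9, 234 kb apart. The first, ENSSSCG00000020745 (13580041 to 13581078), had 29.3, 21.4 and 35.6 CPM in high libraries 1 to 3 and 13.1, 12.5 and 15.97 CPM in low libraries 1 to 3. The second, ENSSSCG00000024447 (13814634 to 13815671), had 17.8, 12.4 and 24.5 CPM in high libraries 1 to 3 and 1.45, 2.55 and 3.15 CPM in low libraries 1 to 3. The first record's lowest high library was 1.34-fold above its highest low library, and the second record's was 3.95-fold above. The log2 fold changes were 1.05 (SE 0.21) on the first and 2.94 (SE 0.36) on the second record, and 1.53 (SE 0.23) with both added. The counts on the second record were small in the low group, at 51, 86 and 89 reads.

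Although the fold changes of the THRSP records differed, the gap between them in CPM was about the same in every library. The first minus the second record was 11.5, 8.97 and 11.1 CPM in high libraries 1 to 3 and 11.7, 9.95 and 12.8 CPM in low libraries 1 to 3. These differences averaged 10.5 ± 1.36 CPM in the high group and 11.5 ± 1.45 CPM in the low group (SD, n = 3 each), and the groups overlapped. In CPM, high minus low was thus of like size on both records. The second over the first record was 0.608, 0.581 and 0.688 in the high libraries and 0.111, 0.204 and 0.197 in the low libraries.

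The neighbour of THRSP was also listed on 2 records. NDUFC2, a subunit of mitochondrial complex I, lies 5.53 kb beyond the first THRSP record (13586610 to 13592941) and 5.55 kb beyond the second (13821217 to 13827297), on the minus strand in both places. Its records averaged 40.4 ± 5.38 and 28.8 ± 3.57 CPM in the high group and 45.6 ± 3.83 and 35.5 ± 2.48 CPM in the low group (SD, n = 3 each). The second over the first NDUFC2 record was between 0.686 and 0.744 in the high libraries and between 0.762 and 0.800 in the low libraries. The first minus the second was between 9.16 and 13.4 CPM in the high libraries and between 8.41 and 11.3 CPM in the low libraries. The proportion moved less than that of THRSP, which was chosen for its difference between the groups. Whether the paired records are 1 locus placed at 2 positions was not tested.

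**Figure D2:**
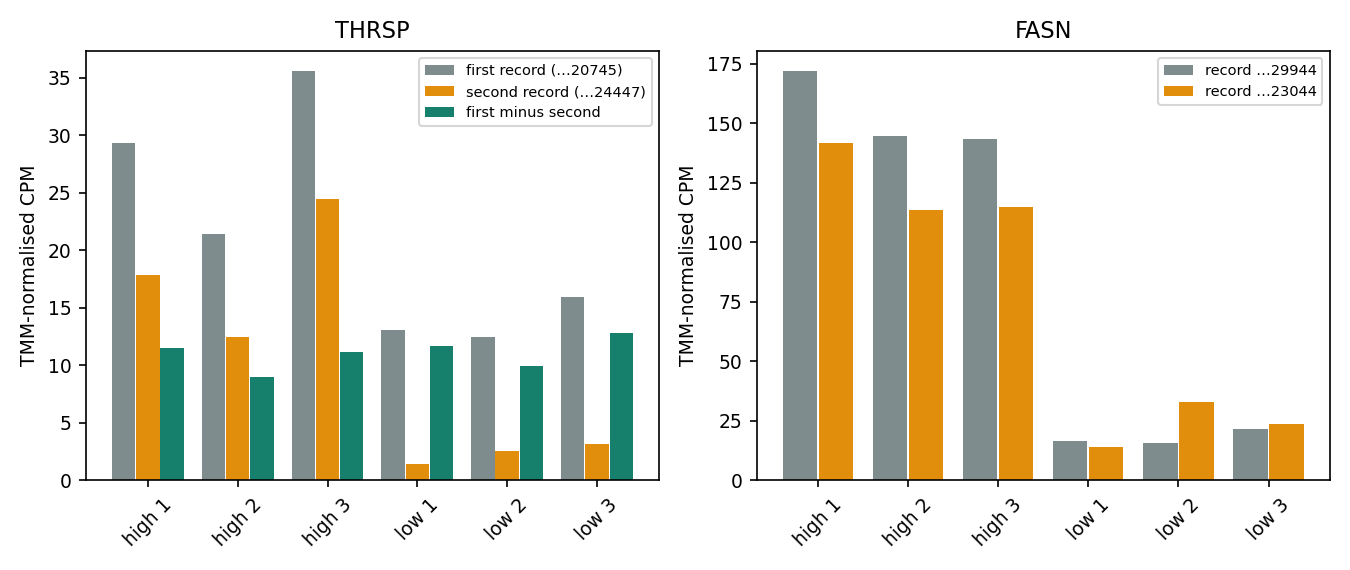
TMM-normalised CPM of the 2 THRSP records with their difference (left) and of the 2 FASN records (right) in each library, high libraries left of low libraries; bars start at 0. The green THRSP differences stay between 8.97 and 12.8 CPM while both records are higher in the high libraries, and low library 2 is the library where the second FASN record, ENSSSCG00000023044, exceeds the other by the widest margin.

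The genes did not share 1 order of the libraries. In the high group, SCD and both FASN records were highest in library 1, ACACA was highest in library 2, and ELOVL5 and both THRSP records were highest in library 3. In the low group, library 3 was highest for SCD, the first FASN record, ELOVL5 and both THRSP records, and library 2 for the second FASN record and ACACA. Likeness of pattern was measured as the root mean square difference of log2(CPM + 0.5), each record centred on its own mean, over the 6 libraries. By this measure the second THRSP record was the nearest of all records to the first FASN record (0.41) and to the second FASN record (0.38). The first FASN record was the nearest to SCD (0.55). ELOVL5 and ACACA lay 0.28 apart, and ELOVL5 and the first THRSP record 0.24 apart. The 2 THRSP records lay 0.88 apart.

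Outside the 5 genes, the record most like SCD was that of PLIN1, the coat protein of adipocyte lipid droplets, at a distance of 0.94, followed by PRKG1 (1.03), a cyclic GMP dependent kinase, and CIDE-C (1.09), a lipid droplet protein. PLIN1 was also the nearest outside record to the first FASN record (0.50) and to the second THRSP record (0.52). CA5B, the mitochondrial carbonic anhydrase (0.48), and SORL1, a sorting receptor (0.50), were nearest to the second FASN record. RAPH1 (0.23), ZBTB10 (0.24) and DUSP10 (0.25), a phosphatase of MAP kinases, were nearest to ACACA. ASPH (0.14), PTPRS (0.16) and AGT (0.18), the angiotensin precursor, were nearest to ELOVL5, and ISLR (0.0956), ASPH (0.14) and TECRL (0.15) to the first THRSP record. A record with a like difference between the groups is near by construction.

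Listed genes near these 5 on the chromosome had smaller differences, which the choice of the 5 for their difference made likely beforehand. Within 1 Mb of SCD, FASN, ACACA and THRSP there were 45 other listed records, with log2 fold changes between -0.81 and 0.37 and a median of -0.20. All 15 near FASN were below 0, at values between -0.81 and -0.04. Of all 7661 records, 4199 were lower in the high group. The nearest to SCD was IKK-ALPHA, 110 kb away, at 0.02 (SE 0.13), and the nearest to the first FASN record was CSNK1D, 45.6 kb away, at -0.13 (SE 0.13). Of the 45, edgeR's quasi-likelihood test called 0 after adjustment over all records, while 8 had an unadjusted p under 0.05, DESeq2 called 3 (GOT1, FN3K and METRNL, all lower in the high group) and edgeR's exact test called 2. Over all records the shares were 18.5% at an unadjusted p under 0.05, 6.77% in DESeq2 and 4.12% in the exact test. The counts among the 45 are near these shares. No other record was listed on the scaffold of ELOVL5. Each of the 7 records was also set beside all records whose genomic span was within 1.5-fold of its own. The median log2 fold changes of those records were between -0.19 for the second FASN record and 0.21 for ACACA.

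**Figure D3:**
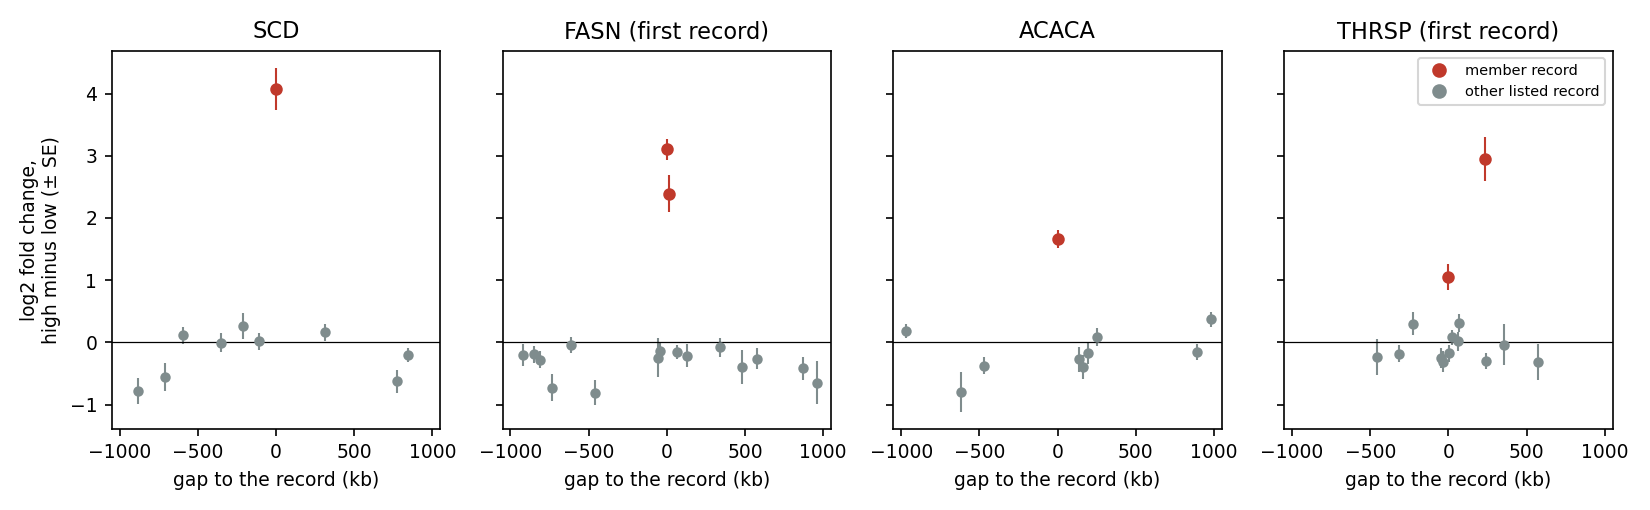
log2 fold change (high minus low, bars ± SE) of listed records within 1 Mb of SCD, FASN, ACACA and THRSP, against the gap to the record in kb, with the described records in red and other records in grey. The grey points lie between -0.81 and 0.37, below the red points, which were chosen for their difference, in all 4 panels.

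The other genes of fatty acid synthesis and modification were then compared, to see which further steps of the pathway differed between the groups. Of 36 symbols (older names included), 10 matched a record, of which 4 were higher and 6 lower in high libraries, and their median log2 fold change was -0.03. edgeR's quasi-likelihood test, adjusted over all 7661 records, called 0 of the 10, where it called 0.144% of the whole table. TECRL, a homologue of the enoyl-CoA reductase TECR, alone had an unadjusted p under 0.05, and DESeq2 and edgeR's exact test each called it. TECRL had 13.0, 11.9 and 15.6 CPM in high libraries 1 to 3 and 7.42, 6.65 and 8.02 CPM in low libraries 1 to 3, without overlap. Being under 10 CPM in every low library, TECRL could enter the table only through the high group, and nothing is read from its calls. Its log2 fold change was 0.88 (SE 0.17, quasi-likelihood adjusted p = 0.0981). MID1IP1, a homologue of THRSP that promotes the assembly of active acetyl-CoA carboxylase in mice, had 57.1, 66.5 and 69.6 CPM in the high libraries and 40.2, 45.002 and 63.0 CPM in the low libraries. Its groups overlapped, and its log2 fold change was 0.38 (SE 0.19, adjusted p = 0.315), or 0.60 without low library 3 and 0.27 without low library 1.

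The enzymes that act with an elongase had log2 fold changes between -0.26 and 0.19. HSD17B12, the ketoacyl-CoA reductase of elongation, stood at 0.19 on the log2 fold scale (SE 0.18, adjusted p = 0.595). TECR, which ends the elongation cycle, had -0.03 (SE 0.18), and the dehydratases PTPLA and PTPLAD1 had -0.03 (SE 0.17) and -0.26 (SE 0.15). PTPLAD1 had 12.9, 15.2 and 14.2 CPM in high libraries 1 to 3 and 19.2, 16.01 and 15.3 CPM in low libraries 1 to 3, lower in all 3 high libraries than in any low library. Of the proteins that pass electrons to desaturases, the cytochrome CYB5A had 0.12 (SE 0.19) and the reductases CYB5R1 and CYB5R3 had -0.06 (SE 0.15) and -0.21 (SE 0.15). ACACB had -0.16 (SE 0.13, adjusted p = 0.527). None of these 8 passed in the quasi-likelihood test, which does not show that they were equal. The desaturases FADS1, FADS2 and SCD5 and the elongase ELOVL6 were not matched by name and are not analysed here.

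**Figure D4:**
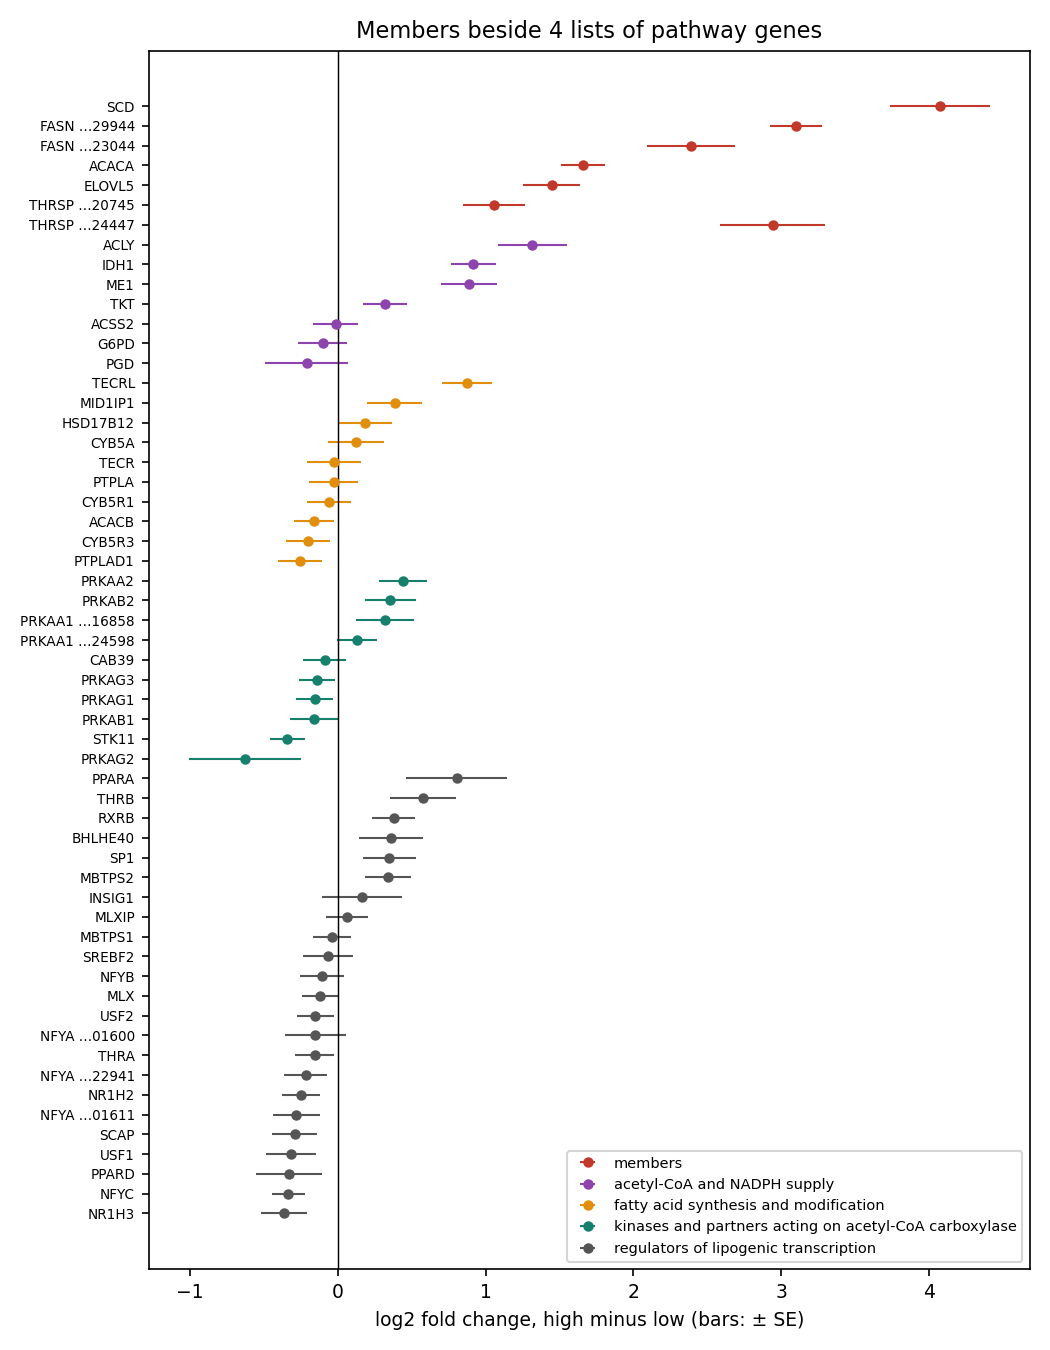
log2 fold change (high minus low, bars ± SE) of the 7 described records in red and of 4 lists of pathway genes below them. The described records, chosen for this difference, lie between 1.05 and 4.07, and apart from ACLY, IDH1, ME1, TECRL and PPARA the listed genes lie between -0.63 and 0.58. ACLY, IDH1 and TECRL could enter the table only through the high group.

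Regulators of lipogenic transcription form the next list. The SREBP proteins are released from the endoplasmic reticulum by SCAP and site proteases and bind promoters of FASN, ACACA and SCD together with NFY and SP factors, while liver X receptors act with retinoid X receptors. Of 26 symbols, 21 matched 23 records, of which 8 were higher and 15 lower in the high group, at a median log2 fold change of -0.12. The quasi-likelihood test called 0 of them, and DESeq2 and the exact test called 0. At an unadjusted p under 0.05 there were 5 (3 higher, 2 lower), beside 18.5% of all records (10.2% higher, 8.3% lower). NR1H3, the liver X receptor alpha, listed as LXR, had 17.5, 16.2 and 19.7 CPM in high libraries 1 to 3 and 19.9, 22.9 and 26.1 CPM in low libraries 1 to 3, and all 3 high libraries lay below the low ones. Its log2 fold change was -0.37 (SE 0.16, adjusted p = 0.264). Over the list the groups stood apart in 3 records that were lower and 2 that were higher, beside 26.8% of all records. NFYC, a subunit of NFY, had -0.34 (SE 0.11, adjusted p = 0.197) and the retinoid X receptor RXRB 0.38 (SE 0.15, adjusted p = 0.235).

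THRB, a thyroid hormone receptor, had 23.7, 29.2 and 41.0 CPM in high libraries 1 to 3 and 23.8, 21.8 and 17.4 CPM in low libraries 1 to 3. Its groups overlapped by a small margin, and its log2 fold change was 0.58 (SE 0.22, adjusted p = 0.236), or 0.33 without high library 3. The receptor THRA had -0.16 (SE 0.13). PPARA, a receptor that raises fatty acid oxidation, had 0.80 (SE 0.34, adjusted p = 0.266), or 0.51 without high library 2 and 1.21 without low library 2. SREBF2, listed as SREBP-2, had -0.07 (SE 0.17), SCAP -0.29 (SE 0.15), the protease MBTPS2 0.34 (SE 0.16) and INSIG1, which holds SCAP back, 0.16 (SE 0.27). SREBF1 and MLXIPL were not matched by name and are not analysed here.

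ACACA is also controlled as a protein, being switched off when the AMP-activated kinase phosphorylates it. Of 12 symbols for this kinase, its activators and other partners of the carboxylase, 9 matched 10 records, 4 higher and 6 lower in the high group, at a median log2 fold change of -0.12. The quasi-likelihood test called 0, and DESeq2 and the exact test called 0. At an unadjusted p under 0.05 there were 2 (1 higher, 1 lower), beside 18.5% of all records. The catalytic subunit PRKAA2 had 209, 167 and 207 CPM in high libraries 1 to 3 and 167, 125 and 138 CPM in low libraries 1 to 3. The groups overlapped narrowly, and its log2 fold change was 0.44 (SE 0.17, adjusted p = 0.229). STK11, the kinase that activates it, had 32.2, 31.9 and 32.9 CPM in the high libraries and 37.4, 41.6 and 44.1 CPM in the low libraries. The high libraries lay below the low ones, and its log2 fold change was -0.34 (SE 0.12, adjusted p = 0.197). The muscle subunit PRKAG3, in which a mutation alters glycogen content of pig muscle, had -0.14 (SE 0.12). The subunit PRKAG2 had the largest difference of the list, -0.63 (SE 0.38, adjusted p = 0.393), with overlap of the groups. Its low libraries 1 to 3 had 54.6, 150 and 66.3 CPM, and its high libraries 1 to 3 had 67.3, 63.5 and 44.6 CPM. These are transcript levels, and phosphorylation was not measured.

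Among 7 records of enzymes that supply acetyl-CoA and NADPH, 4 were higher and 3 lower in the high group, at a median of 0.31. The quasi-likelihood test called 0, while DESeq2 and the exact test each called 3, beside 6.77% and 4.12% of all records. ACLY, which makes cytosolic acetyl-CoA from citrate, had a difference of 1.32 (SE 0.23, adjusted p = 0.0921), the isocitrate dehydrogenase IDH1 0.91 (SE 0.15, adjusted p = 0.0762) and the malic enzyme ME1 0.89 (SE 0.19, adjusted p = 0.109), all 3 without overlap of the groups. ACLY and IDH1 were under 10 CPM in every low library, so they could enter the table only through the high group. Nothing is therefore read from their calls or lack of overlap. ME1 exceeded 10 CPM in every library.

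Markers of cell types were compared next. Of 19 adipocyte symbols 10 matched a record, 8 higher and 2 lower in the high group, at a median log2 fold change of 1.14; 1 record, PLIN1, passed the quasi-likelihood test, and 6 passed in DESeq2, which called 6.77% of all records. The groups stood apart in 7 records, of which 6 were higher in high libraries (PLIN1, CIDE-C, RETSAT, CIDEA, AGT and AOC3) and 1 was lower. That was AQP7, the glycerol channel, with a log2 fold change of -0.66 (SE 0.24), and CFD, the secreted protein adipsin, had -0.24 (SE 0.22) with overlap. PLIN1, CIDE-C and CIDEA were under 10 CPM in every low library, so they could enter the table only through the high group. Of the low libraries, RETSAT exceeded 10 CPM in library 1 alone. Nothing is therefore read from the calls or the lack of overlap of these markers. The summed level of all 10 was 379, 505 and 742 CPM in high libraries 1 to 3 and 369, 389 and 305 CPM in low libraries 1 to 3. PLIN4 contributed 132, 217 and 317 CPM of these sums in the high libraries and 204, 209 and 97.4 CPM in the low libraries. The lowest adipocyte marker in any library stood at 2.70 CPM, so none of those matched was at 0, and ADIPOQ, LEP, FABP4 and LPL are not analysed here. PLIN1 had 28.4, 38.7 and 60.7 CPM in the high libraries and 8.04, 4.75 and 6.18 CPM in the low libraries. The groups lay far apart, and its log2 fold change was 2.75 (SE 0.32, adjusted p = 0.0409). Its adjusted p was 0.134 with the replicate number as a block. It was 0.145 without high library 2, 0.0501 without high library 3, 0.168 without low library 2 and 0.0971 without low library 3. Adipocyte markers were highest in high library 3, whereas SCD and FASN were highest in high library 1.

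Each of the 5 genes was also divided by each of the 10 adipocyte markers within a library, a comparison chosen after seeing the data. SCD over a marker was higher in the high group without overlap for all 10 markers. Against PLIN1, the marker with the largest difference, SCD stood at 21.9, 8.49 and 7.89 in high libraries 1 to 3 and 2.57, 5.36 and 6.27 in low libraries 1 to 3. The ratios of the first FASN record and of the second THRSP record were each higher without overlap for 8 markers, and overlapped for PLIN1 and CIDE-C. The second FASN record was higher without overlap for 6 markers and overlapped for 4. For ACACA, ELOVL5 and the first THRSP record the direction depended on the marker. ACACA over PLIN1 was 1.06, 0.933 and 0.461 in the high libraries and 1.19, 2.20 and 1.59 in the low libraries, lower in the high group, while ACACA over AOC3 was 1.34, 1.33 and 0.880 in the high libraries and 0.575, 0.832 and 0.728 in the low libraries, higher in the high group. ACACA and ELOVL5 were each higher without overlap for 3 markers (AQP7, CFD and AOC3), lower for PLIN1 and overlapping for 6. The first THRSP record was higher for 2 markers, lower for PLIN1 and overlapping for 7. SCD, the first FASN record and the second THRSP record ranked 1, 2 and 3 of all records in log2 fold change. Their choice from this contrast thus favoured higher ratios to any marker with a smaller difference. AQP7 and CFD were themselves lower on average in the high group, which raises the ratios to them. Nothing is therefore read from these counts. The part of adipocyte content in the differences of the 5 genes was not tested.

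Fibroblast and matrix markers were higher in the high group in 18 of 18 records, at a median of 0.87. The quasi-likelihood test called 0 of them, and 13, all higher, had an unadjusted p under 0.05, beside 10.2% of all records. DESeq2 and the exact test each called 10, beside 6.77% and 4.12% of all records. PDGFRA is in these counts. It exceeded 10 CPM in every high library but, of the low libraries, in library 3 alone, so nothing is read from its calls. The summed level of the 18 records was between 4277 and 5703 CPM in the high libraries and between 1815 and 3669 CPM in the low libraries. Summed endothelial markers (9 records, median 0.06) were between 486 and 571 CPM in the high group and between 423 and 562 CPM in the low group. Summed macrophage markers (7 records, median -0.15) were between 170 and 246 CPM in the high group and between 105 and 293 CPM in the low group. Muscle fibre markers (11 records, median -0.16) summed to between 110946 and 122074 CPM in the high group and between 106438 and 121163 CPM in the low group. Of these 3 lists the quasi-likelihood test, DESeq2 and the exact test called 0 records. At an unadjusted p under 0.05 there were 2 endothelial records, beside 18.5% of all records. The part of the matrix genes in the differences described above was not tested either.

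**Figure D5:**
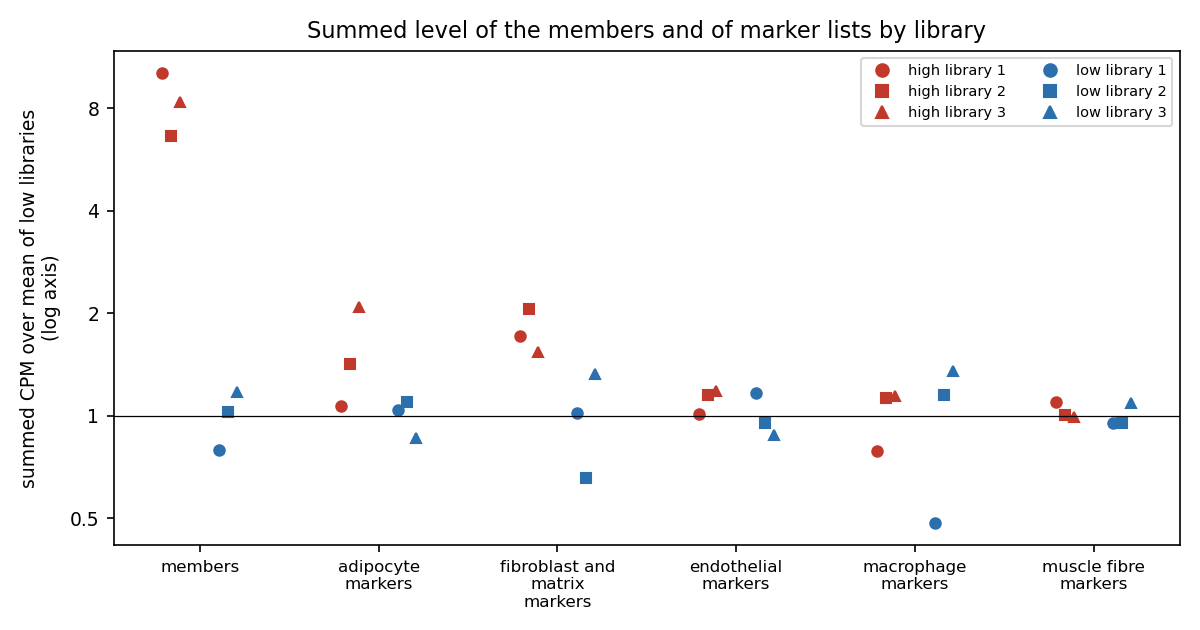
Summed CPM of the 7 described records and of 5 marker lists in each library, divided by the mean of the 3 low libraries (log axis), high libraries in red left of low libraries in blue. The described records and the fibroblast and matrix markers lie apart between the groups, and the sums of the other 4 lists overlap between them, although 6 of the 10 adipocyte records taken singly stood apart as higher in high libraries and 1 as lower. Of those that were higher, PLIN1, CIDE-C and CIDEA could enter the table only through the high group.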

How the data were processed

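Total RNA was extracted with TRIzol and made into Illumina TruSeq libraries, per the labels' protocols. FastQC 0.10.1, Trimmomatic 0.22, TopHat2 2.0.4 and BWA 0.6.2 were used, per the submitters' processing notes. No source used here names the read counter, strandedness, build or annotation release. The authors deposited raw counts for 7661 Ensembl records and CPM, which are counts over 1 library total each; those totals served as library sizes. All listed records exceeded 10 CPM in 3 or more libraries. The authors' deposited log2 fold changes and p-values were not used, nor was a second deposited list drawn from the same table.

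The fit was edgeR 4.0.16 (R 4.3.3) with TMM, filterByExpr, which kept all 7661 records, and the two-sided quasi-likelihood test without covariates, with Benjamini-Hochberg adjustment over all records and a threshold of 0.05. Adjusted p-values come from it unless another test is named. SE is the absolute log2 fold change over the square root of F. Depth limits low records most: 3 counts are between 0.0862 and 0.118 CPM. Alternatives were DESeq2 1.42.0, edgeR's exact test, other size factors, filters and library sizes, the replicate block, each library left out, a threshold of 0.1, and summed records; ratios to adipocyte markers other than PLIN1 were added after seeing the data. The test was run on simulated data first.

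The genes and lists were chosen with earlier results of these data known. Named genes were all records of the 5 genes, up to 8 records per pathway list by unadjusted p (with NR1H3, MID1IP1 and ACACB always named), the 3 most alike records of each and the most abundant markers. TECR, PTPLA, SREBF2, SCAP, INSIG1, THRA, single adipocyte markers and the chromosomal neighbours fall outside this rule and were added for their role or position after their values were seen. PDGFRA also falls outside it and was added for its level in the low libraries. The design text gives n = 3 per group without saying more of the animals. The p-values therefore set each difference against the variation between these libraries, estimated with information from all records.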

Additional observations from a re-analysis of the deposited data

How the results depend on the processing

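The 7 records kept their sign under every alternative that fitted them (a filter at a mean of 20 CPM left out ELOVL5 and the second THRSP record). Their median log2 fold change, 2.39, ran from 2.14 (without low library 1) to 2.71 (without low library 2) when each library was left out, and was 1.66 over 5 genes when the records of a symbol were summed, since FASN and THRSP then count once each. The 11 calls over all records became 518 in DESeq2, 316 in the exact test, and 77 at a threshold of 0.1. With the replicate number as a block there were 2 calls. The deviations of same-numbered libraries from their group means correlated at 0.110, 0.0387 and -0.0732. Those of differently numbered libraries correlated between -0.184 and 0.138. What the number stands for is not given in the sources used here, and whether same-numbered libraries share more than a number was not tested. Leaving out single libraries gave 1 to 30 calls: 4 without high library 1, 4 without high 2, 5 without high 3, 30 without low 1, 1 without low 2 and 16 without low 3. In the fatty acid synthesis and modification list, TECRL made 1 call in DESeq2, 1 in the exact test and 1 at the looser threshold, against 0. TECRL could enter the table only through the high group. The lists of regulators and of kinases stayed at 0 calls under the alternatives run. Leaving out single libraries, the log2 fold change of SREBF2 ran from -0.19 (without low library 1) to 0.038 (without low library 3), and that of INSIG1 from -0.091 (without low library 1) to 0.40 (without low library 3). Likewise CYB5A ran from -0.066 to 0.28, CYB5R1 from -0.11 to 0.044, TECR from -0.16 to 0.12, PTPLA from -0.12 to 0.13, CFD from -0.41 to 0.0059 and IKK-ALPHA from -0.064 to 0.092 (-0.0062 with upper-quartile factors). The cause of these moves was not tested. With 3 libraries per group, a difference about as large as its SE was not detectable. In the main fit the THRSP record with 51 to 89 reads in the low group had the largest SE of the 7, 0.36. With the replicate block the SE of SCD, 0.32, was above that of this THRSP record, 0.29.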
